A study of Mus musculus with 15 samples.

Results

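The 10 genes described here belong to the stress response that runs through the transcription factor ATF4 and to the unfolded protein response, and were followed across primary astrocytes of mouse brain. They are Atf3, Atf4, Atf5, Ddit3, Trib3, Asns, Sesn2, Hspa5, Manf and Xbp1. They were found by gene symbol, and are 10 of the 25748 symbols counted. All 10 passed the filter on low counts and so belong to the 15362 genes tested. Polyadenylated RNA was sequenced in 15 libraries, 5 of untreated control astrocytes, 5 of astrocytes given 1 µg/mL lipopolysaccharide (LPS) for 6 to 8 h, and 5 given 80 µM ginsenoside Rg1 for 12 h and then 1 µg/mL LPS for 6 to 8 h. LPS is a bacterial cell wall component that stimulates cells through TLR4, and ginsenoside Rg1 is a saponin of ginseng. The submitters label the LPS group SCI, but the labels describe a culture given LPS. No group given Rg1 without LPS was analysed here, so the Rg1 plus LPS group is compared with the LPS group, and "with Rg1" below stands for that comparison of groups. Whether replicates were grown from different mice or split from a single culture is not in the labels. The p-values therefore speak only to the spread among these libraries, which may be technical.

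Proteins that are to be secreted or placed in membranes fold in the endoplasmic reticulum (ER). When unfolded protein builds up there, the sensors PERK, IRE1 and ATF6 start the unfolded protein response. PERK and the related kinases GCN2, PKR and HRI phosphorylate the translation factor eIF2, which lowers general protein synthesis but raises translation of the ATF4 mRNA, and this shared route is called the integrated stress response. IRE1 splices the Xbp1 mRNA, and ATF6 and spliced XBP1 drive genes of ER chaperones. Much of the control of ATF4 and XBP1 therefore lies in translation and splicing, which counts per gene do not show.

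Promoter sequences are shown for the 3 genes in which a searched element was found, Atf3 and Asns with the element read by ATF4 and Hspa5 with the ER stress element. Each runs 5′ to 3′ over the 250 bases before the annotated start, from RefSeq on GRCm38.p6. Capitals mark the match. The window of Atf3 lies at chr1:191183334-191183583 and that of Asns at chr6:7693210-7693459, both read on the minus strand. That of Hspa5 lies at chr2:34771840-34772089 on the plus strand.
Atf3: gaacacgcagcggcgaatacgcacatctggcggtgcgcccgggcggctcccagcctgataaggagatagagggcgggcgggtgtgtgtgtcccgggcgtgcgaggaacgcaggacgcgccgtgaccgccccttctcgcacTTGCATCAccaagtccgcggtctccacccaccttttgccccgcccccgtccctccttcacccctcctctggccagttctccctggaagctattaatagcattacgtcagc
Asns: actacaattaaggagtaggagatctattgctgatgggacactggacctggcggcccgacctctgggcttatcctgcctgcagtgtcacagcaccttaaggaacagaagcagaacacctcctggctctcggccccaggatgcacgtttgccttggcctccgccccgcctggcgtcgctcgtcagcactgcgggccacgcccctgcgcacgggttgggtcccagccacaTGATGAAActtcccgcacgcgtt
Hspa5: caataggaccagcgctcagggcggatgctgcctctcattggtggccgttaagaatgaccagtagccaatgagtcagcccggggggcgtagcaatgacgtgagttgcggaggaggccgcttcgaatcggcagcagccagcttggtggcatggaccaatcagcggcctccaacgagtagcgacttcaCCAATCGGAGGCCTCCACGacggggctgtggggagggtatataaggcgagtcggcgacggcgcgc

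The C/EBP-ATF response element, through which ATF4 acts with C/EBP partners, was searched as TGATGNAA on both strands. It was found in the windows of Atf3, 110 to 103 bases before the start and on the minus strand of the window, and of Asns, 23 to 16 bases before the start. Of 32851 promoter windows of the same length, 3.45% hold it. The ER stress element was searched on both strands as CCAAT, any 9 bases and CCACG. It was found in the window of Hspa5, 65 to 47 bases before the start, and 0.113% of all windows hold it. The cyclic AMP response element, searched likewise and only as the exact letters TGACGTCA, was in none of the windows of these genes and in 1.55% of all windows. Variants of it with other letters were not searched, so a miss does not show that they are absent. Promoters were given for 9 of the 10 genes, all but Manf, in 10 windows because Atf5 has 2 starts. A match describes the letters and does not show that a factor bound there.

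The libraries held between 34.2 and 41.8 M counts. Mitochondrially encoded genes took 2.49 to 2.80% of counts in control, 1.58 to 2.37% in LPS and, with Rg1 before LPS, 2.77 to 4.98%. The level of a gene relative to the mean of all libraries leaned on gene length by group. The slope of log2 normalised counts on log2 length ran from 0.0148 to 0.0655 in control, from 0.0188 to 0.0656 in LPS and from -0.1114 to -0.0562 in Rg1 plus LPS, so that short genes stood relatively higher in every Rg1 plus LPS library. The mitochondrial share and this slope each separate the Rg1 plus LPS libraries from the LPS libraries without overlap, and the design does not let them be told apart from the treatment. For tested differences described below, values with the length trend removed library by library are given where a call or direction changes or the value moves by more than 1.5 times. None of the 10 astrocyte markers was at 0 in any group, and they summed to 8894 to 11380 CPM (counts per M of the scaled library total) in control, 5772 to 10010 in LPS and 6282 to 9860 in Rg1 plus LPS. Of the 10, 0 were called higher and 6 lower with LPS, and 5 higher and 1 lower with Rg1. With the length trend removed these counts were 0 and 8, and 4 and 0. Over all genes tested, 23.7% were called with LPS and 45.4% with Rg1. Markers of fibroblasts and mural cells were also high, at 3517 to 4146, 3546 to 5708 and 1785 to 4581 CPM. Those of microglia and macrophages summed to 43.8 to 92.0, 45.6 to 93.5 and 41.0 to 69.9 CPM. Tmem119 was the highest of them in each group, with means of 30.7, 28.4 and 36.0 CPM. In Rg1 plus LPS against LPS, 5 of 10 were called lower and 0 higher. Among those called lower was Csf1r, the receptor microglia need, at 1.31 against 5.96 CPM. The means of Tmem119, Aif1 and P2ry12 were higher in Rg1 plus LPS than in LPS, without a call. Oligodendrocyte lineage markers summed to 114 to 162 CPM, 113 to 132 CPM and 98.1 to 123 CPM. Of 5 tested, 1 was called higher and 3 lower with Rg1, and 0 and 1 with the length trend removed. Neuronal markers summed to 169.5 to 188 CPM in control, 135 to 154 CPM in LPS and 147 to 175 CPM with Rg1. They came mostly from Map2, while Rbfox3 had 1 to 3 counts over each group. Endothelial markers summed to 123 to 148 CPM, 138 to 176 CPM and 90.1 to 105 CPM, mostly from Cdh5, which fell with Rg1 from 141 to 86.8 CPM, while Pecam1 had 12 to 36 counts over each group and Cldn5 0 to 3. In bulk samples, fewer cells of a type and less RNA per cell cannot be told apart, and the part of these cells in the results below was not tested.

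Per length, Hspa5 and Manf were the most abundant of the 10 mRNAs and Trib3 the least. Hspa5, which encodes the ER chaperone BiP, stood at 247 ± 9.17 FPKM in control (SD, n = 5), which divides counts by gene length and by library total. Manf, which encodes a secreted ER stress-induced trophic factor, stood at 199.8 ± 3.75 FPKM. Atf4 followed at 103 ± 9.04 FPKM. Below it stood Atf5 at 73.9 ± 6.24 FPKM and Atf3 at 68.3 ± 14.3 FPKM, whose ranges overlapped. Xbp1 stood at 33.4, Sesn2 at 24.5, Asns at 17.2, Ddit3 at 11.3 and Trib3 at 2.32 FPKM. The order was the same in LPS, where the neighbours Sesn2 and Asns overlapped. In Rg1 plus LPS, Atf3 went from the fifth place to the seventh, at 20.6 ± 14.0 FPKM, and 6 of 9 neighbouring pairs overlapped. The deposited lengths of Ddit3, 2542 bases, and Asns, 3407 bases, exceed the longest coding transcript of the GENCODE annotation, 890 and 2016 bases. Their places per length are therefore uncertain, and so are their values with the length trend removed, which use the deposited lengths.

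**Figure D1:**
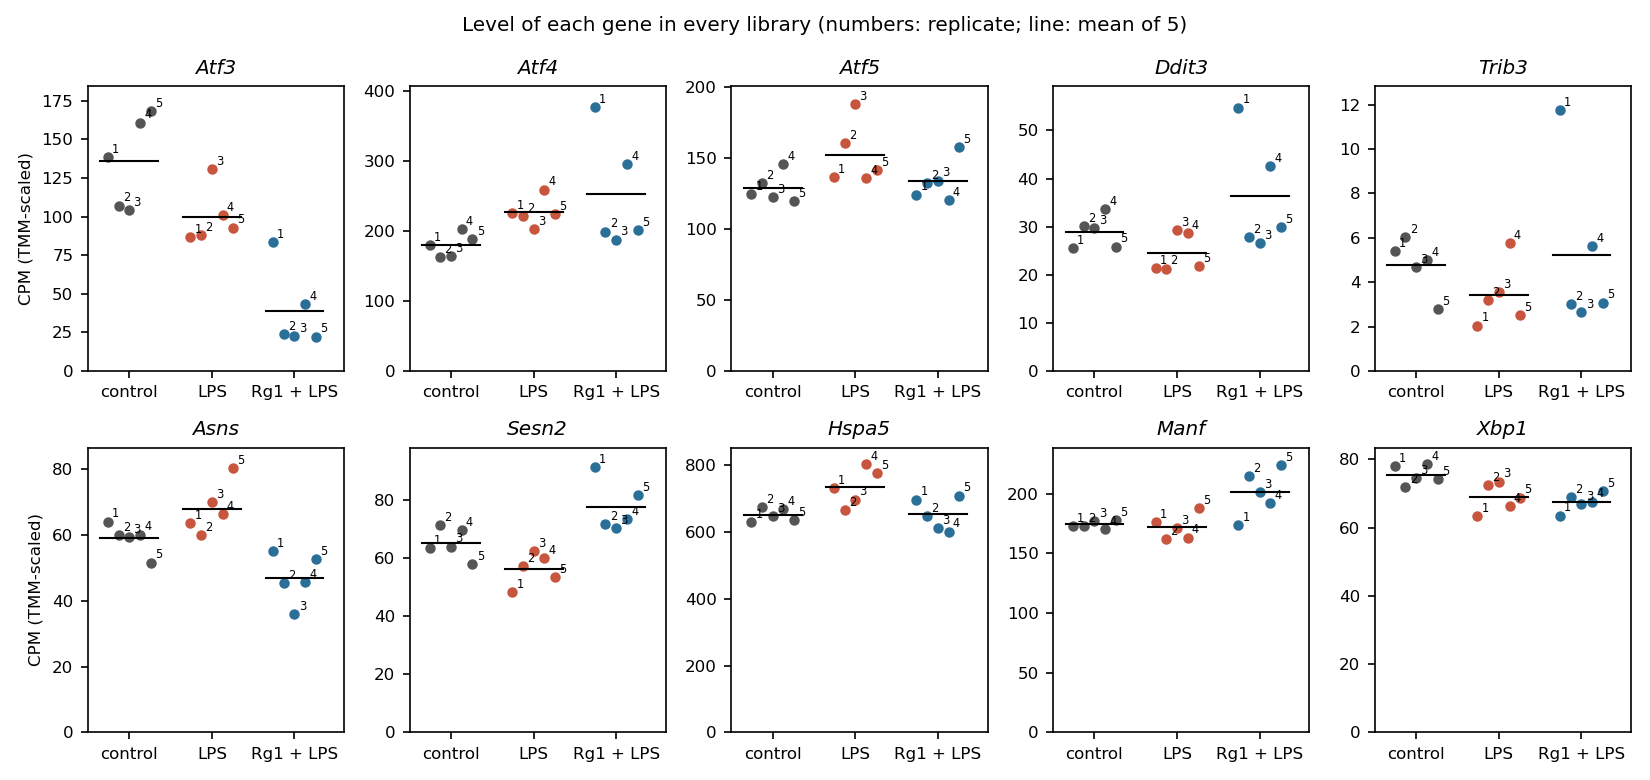
Normalised read counts (CPM, linear axis from 0) of the 10 genes in each library. Points are single libraries with their replicate number, lines the group means. All 5 Rg1 plus LPS libraries lie below all LPS libraries for Atf3 and Asns and above them for Sesn2, and replicates 1 and 4 stand above the other 3 for Atf3, Atf4, Ddit3 and Trib3.

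LPS alone moved none of the 10 genes past the threshold, an adjusted p of 0.05 in edgeR's quasi-likelihood test over all genes, against 23.7% of all genes tested. Of these, 13.8% were called higher and 9.82% lower. At an unadjusted p of 0.05 the count was 4 of 10 (Atf5 and Hspa5 higher, Sesn2 and Xbp1 lower). The share of all genes at that unadjusted threshold was not taken, so this count has nothing to be set against. DESeq2 called 1, Hspa5, beside 4169 of 17259 genes, and limma voom called 0, beside 3708 of 15362. The median log2 fold change of the 10 was -0.08, beside -0.0029 over all genes. The groups did not overlap for 1 gene, Atf4, beside 20.4% of all genes.

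Atf4, the transcription factor at the centre of the integrated stress response (chr15:80255184-80257545, plus strand), was read at 179, 162, 164, 202 and 188 CPM in control replicates 1 to 5 and at 225, 221, 202, 259 and 223 CPM in LPS. Every LPS library lay above every control library, the closest pair being 202.18 CPM in control and 202.45 CPM in LPS. The log2 fold change was 0.33 ± 0.16 (SE; 95% interval -0.0075 to 0.676; adjusted p = 0.146). In this test the 3 groups share their estimate of spread, which is widest for Atf4 in Rg1 plus LPS, with an SD of 82.1 CPM beside 16.7 and 20.3. With only control and LPS in the fit, the same difference was 0.33 ± 0.08 with an adjusted p of 0.00583.

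Hspa5 (chr2:34772090-34776529, plus strand) had 628 to 674 CPM in control and 665 to 802 CPM in LPS, and 4 of 5 LPS libraries lay above all control libraries. Its log2 fold change was 0.17 ± 0.07 (adjusted p = 0.0624), with an interval of 0.0367 to 0.3124. It was called with only these groups in the fit (adjusted p = 0.0462) and with the length trend removed (adjusted p = 0.0496). Sesn2 had a log2 fold change of -0.21 ± 0.09 (adjusted p = 0.0826) and Xbp1 one of -0.13 ± 0.05 (adjusted p = 0.0806), and both were called lower when libraries were scaled by their total count alone or when LPS replicate 3 was left out (adjusted p = 0.0415 and 0.0316). Sesn2 was also called without control replicate 5 (adjusted p = 0.04998), and Hspa5 without LPS replicate 2 (adjusted p = 0.0373). Atf5, called with the length trend removed (adjusted p = 0.0351), had a log2 fold change of 0.24 ± 0.09 (adjusted p = 0.0764). The other 5 had adjusted p between 0.167 (Asns, 0.20 ± 0.10) and 0.856 (Manf, -0.02 ± 0.06, and 0.05 with the length trend removed). Trib3 and Atf3 had the widest intervals, -1.33 to 0.358 and -1.11 to 0.225, which hold both 0 and a 2-fold fall.

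Between the Rg1 plus LPS group and the LPS group 6 of the 10 genes differed, 3 up and 3 down. Ddit3, Sesn2 and Manf rose, and Atf3, Asns and Hspa5 fell. Over all genes 45.4% were called, 22.2% higher and 23.2% lower. The groups did not overlap for 3 of the 10, Atf3, Asns and Sesn2, beside 27.5% of all genes. The median log2 fold change of the 10 was 0.06, beside 0.0284 over all genes. With the length trend removed, 1 was called higher and 5 lower, as Ddit3 and Manf lost their calls and Atf5 and Xbp1 were called lower. Of the 15359 genes in that fit, 2717 were called higher and 3301 lower. Scaling by total count alone shifted the median of all genes to 0.14, and among all called genes 65% were then higher, beside 48.9% with TMM scaling. The median mitochondrial share was 4.07% in Rg1 plus LPS and 2.07% in LPS.

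**Figure D2:**
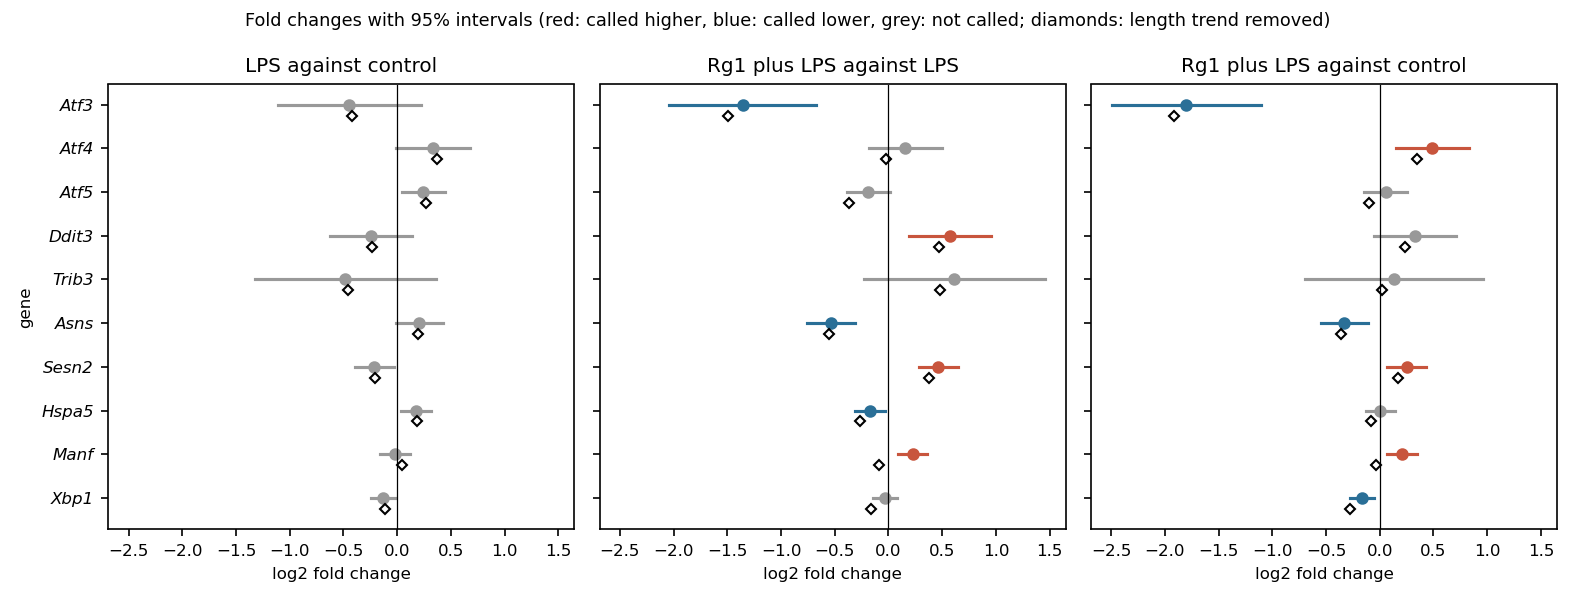
Log2 fold changes of the 10 genes in the 3 comparisons, with 95% intervals of edgeR's fit (red called higher, blue called lower, grey not called) and, as open diamonds, the estimates with the length trend removed. Intervals lie entirely below 0 for Atf3 and Asns in both comparisons of Rg1 plus LPS, and the diamonds of Manf lie below 0 there while its intervals lie above 0.

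Among the 5 transcription factors of the 10 genes, only Atf3 was called lower with Rg1. ATF3 is an immediate stress factor of the ATF/CREB family that is known to damp inflammatory gene expression (chr1:191170296-191183333, minus strand). Its values were 86.5, 88.0, 131, 101 and 92.9 CPM in LPS and 83.4, 23.6, 22.7, 43.2 and 22.2 CPM in Rg1 plus LPS. Every Rg1 plus LPS library lay below every LPS library, replicate 1 by the least and replicates 2, 3 and 5 at about the same low level. The log2 fold change was -1.36 ± 0.32 (adjusted p = 0.00294), that is 0.391 of the LPS level, and without replicates 1 and 4 it was -2.12 (adjusted p = 9.19e-07). The call held in all 20 alternatives.

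Ddit3 encodes CHOP, the C/EBP-family factor tied to cell death under lasting ER stress (chr10:127290793-127296291, plus strand). It had 21.3, 21.3, 29.2, 28.7 and 21.9 CPM in LPS and 54.7, 27.8, 26.5, 42.5 and 30.0 CPM in Rg1 plus LPS. Replicates 1 and 4 stood above the others, whose range overlapped that of LPS, though replicate 5 also lay above all LPS libraries. The log2 fold change was 0.57 ± 0.18 (adjusted p = 0.0169), and the call was lost without replicates 1 and 4 (0.21, adjusted p = 0.183) and with the length trend removed (0.47, adjusted p = 0.0562). The latter value rests on the deposited length of Ddit3, which is uncertain. Ddit3 shares 77 bases with Mbd6 and 71 with Mars1, and the strand setting of the counting is not given in the sources used here. Mbd6 itself had 15.6 to 20.8 CPM in LPS and 29.6 to 35.7 CPM in Rg1 plus LPS, where replicates 1 and 4 did not stand above the rest. How far reads of Mbd6 enter the count of Ddit3 was not tested.

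Atf4 was not called. It had 376, 199, 187, 295 and 201 CPM in Rg1 plus LPS, so that replicates 1 and 4 lay above all LPS libraries and the other 3 below all of them. The log2 fold change against LPS was 0.16 ± 0.16 (95% interval -0.186 to 0.496; adjusted p = 0.458), and without replicates 1 and 4 it was -0.20 (adjusted p = 0.0577). The estimate with the length trend removed was -0.02 (adjusted p = 0.944). Atf5, a relative of ATF4 that is likewise controlled in translation (chr7:44812256-44816658, minus strand), had 136 to 188 CPM in LPS and 120 to 158 CPM in Rg1 plus LPS. Its log2 fold change was -0.19 ± 0.09 (adjusted p = 0.118). It was called lower once the length trend was removed, at -0.37 ± 0.09 (adjusted p = 0.00321). Atf5 shares 571 bases with Nup62, whose means were 44.1, 59.3 and 43.7 CPM in control, LPS and Rg1 plus LPS.

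Among other genes that ATF4 is known to drive, Asns fell, Sesn2 rose and Trib3 was not called. Asns encodes asparagine synthetase (chr6:7675165-7693209, minus strand). It had 63.7, 59.9, 69.9, 66.2 and 80.2 CPM in LPS and 55.1, 45.4, 36.0, 45.6 and 52.7 CPM in Rg1 plus LPS. No Rg1 plus LPS library reached the lowest LPS library. Asns had a log2 fold change of -0.53 ± 0.10 (adjusted p = 0.000555), and it held in all 20 alternatives, with adjusted p of 1.10e-05 to 0.00325. Its promoter is the one shown above whose match lies closest to the start.

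Sesn2 encodes sestrin 2, a stress protein that restrains mTORC1 (chr4:132492804-132510456, minus strand). It had 48.4, 57.4, 62.5, 60.1 and 53.5 CPM in LPS and 91.4, 71.8, 70.4, 73.6 and 81.8 CPM in Rg1 plus LPS. The groups did not overlap. The rise was 0.47 ± 0.09 on the log2 scale (adjusted p = 0.00035), and it too held in all 20 alternatives. Trib3 encodes a pseudokinase that is induced by ATF4 and CHOP and holds ATF4 back (chr2:152337425-152344060, minus strand). It was the lowest of the 10, at 76 to 486 counts per library, with 2.04, 3.20, 3.56, 5.76 and 2.53 CPM in LPS and 11.7, 3.03, 2.64, 5.64 and 3.08 CPM in Rg1 plus LPS. Replicate 1 alone lay above the LPS range. The log2 fold change of Trib3 was 0.61 ± 0.39 (95% interval -0.224 to 1.45; adjusted p = 0.222), and without replicates 1 and 4 it was -0.22 (adjusted p = 0.567).

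The ER genes moved little. Hspa5 had 732, 665, 696, 802 and 775 CPM in LPS and 696, 646, 612, 601 and 708 CPM in Rg1 plus LPS, a log2 fold change of -0.17 ± 0.07 (adjusted p = 0.0435). The groups overlapped, and the call was lost in 11 of 20 alternatives, among them each fit without LPS replicate 1, 4 or 5 or without Rg1 plus LPS replicate 2, 3 or 4, where adjusted p was 0.0681 to 0.148. Scaling by total count alone gave a log2 fold change of -0.06 ± 0.07 (adjusted p = 0.475). With the length trend removed it was -0.27 ± 0.06 (adjusted p = 0.00346). Hspa5 shares 1921 bases with Rabepk, which had means of 27.7 CPM in LPS and 26.9 CPM in Rg1 plus LPS.

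Manf (chr9:106888753-106891938, minus strand) had 176, 162, 171, 163 and 188 CPM in LPS and 174, 215, 202, 193 and 224 CPM in Rg1 plus LPS, with 4 of 5 above all LPS libraries. Its log2 fold change was 0.23 ± 0.06 (adjusted p = 0.00887). At 868 bases Manf has the shortest deposited length of the 10. With the length trend removed the direction turned, to -0.08 ± 0.05 (adjusted p = 0.213). Xbp1, the factor that IRE1 activates by splicing (chr11:5520641-5525993, plus strand), had 63.4 to 73.5 CPM in LPS and 63.5 to 70.7 CPM in Rg1 plus LPS, with a log2 fold change of -0.03 ± 0.05 (95% interval -0.141 to 0.0835; adjusted p = 0.689). It was called lower once the length trend was removed, at -0.16 ± 0.05 (adjusted p = 0.0164).

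Against untreated control, the Rg1 plus LPS group differed in 6 of the 10 genes, with Atf4, Sesn2 and Manf higher and Atf3, Asns and Xbp1 lower. Over all genes 36.9% were called, 18.8% higher and 18.1% lower. Scaling by total count alone made 63.9% of the called genes higher, beside 50.9% with TMM scaling. The groups did not overlap for Atf3 and Xbp1, 2 of 10, beside 26.2% of all genes. The median log2 fold change of the 10 was 0.09, beside 0.0109 over all genes. This comparison uses the same Rg1 plus LPS libraries as the one before, so the shared values do not repeat it independently.

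Atf3 stood at 39.0 ± 26.3 CPM in Rg1 plus LPS and at 136 ± 29.7 CPM in control (SD, n = 5 each), where single libraries had 139, 107, 104, 161 and 169 CPM. Its log2 fold change of -1.80 ± 0.32 (adjusted p = 0.000565) held in all 20 alternatives. Asns, at 51.6 to 64.1 CPM in control, was lower by a log2 fold change of -0.33 ± 0.10 (adjusted p = 0.0204), a call lost without control replicate 1 (-0.30, adjusted p = 0.0517). Xbp1 had 71.9 to 78.7 CPM in control, above all Rg1 plus LPS libraries. Its log2 fold change was -0.16 ± 0.05 (adjusted p = 0.0248). The call was lost in 7 of 20 alternatives, among them those without control replicate 1 or 4 or Rg1 plus LPS replicate 1, 3 or 4, with adjusted p of 0.0509 to 0.0784, and scaling by total count alone gave -0.09 (adjusted p = 0.144). The fall was larger with the length trend removed, at -0.28 (adjusted p = 0.000511).

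Atf4 was higher than in control by a log2 fold change of 0.49 ± 0.16 (adjusted p = 0.026), and 2 of 5 Rg1 plus LPS libraries, replicates 1 and 4, lay above the control range. The call was lost in 8 of 20 alternatives. These included leaving out replicate 1 (0.30, adjusted p = 0.0563), replicate 4 (0.43, adjusted p = 0.065), both (0.13, adjusted p = 0.244) or control replicate 2 or 3 (0.46 in both, adjusted p = 0.061 and 0.0588), and removing the length trend (0.35, adjusted p = 0.142). Sesn2 was higher by 0.25 ± 0.09 on the log2 scale (adjusted p = 0.03), with 4 of 5 libraries above all control libraries. That call too was lost in 8 of 20 alternatives, among them those without Rg1 plus LPS replicate 1 or 5 or control replicate 1, 3 or 5, with adjusted p of 0.0523 to 0.092, and with the length trend removed (0.17, adjusted p = 0.169). Manf had 171 to 178 CPM in control and was higher by 0.21 ± 0.06 (adjusted p = 0.0188). After removal of the length trend it stood at -0.04 ± 0.05 (adjusted p = 0.605). The 4 that were not called were Atf5 (0.05 ± 0.09), Ddit3 (0.33 ± 0.18), Trib3 (0.13 ± 0.39) and Hspa5 (0.01 ± 0.07), with adjusted p from 0.168 to 0.959. With the length trend removed, Atf5 stood at -0.10, Trib3 at 0.02 and Hspa5 at -0.08, with adjusted p of 0.413, 0.98 and 0.337.

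The 5 Rg1 plus LPS libraries were not alike, either for this pathway or over all genes. Between replicates 1 and 4 the chi-square per gene, over genes with at least 20 counts in the pair, was 22.7. It was 108, 115 and 140 between replicate 1 and replicates 2, 3 and 5. Over all genes tested, replicate 1 was also most often the lowest of its group, for 4558 of 15362. Replicate 1 was the highest of its group for 6 of the 10 genes (Atf3, Atf4, Ddit3, Trib3, Asns and Sesn2), while it was the highest for 27.8% of all genes tested. Replicate 4 was second for the first 4 of these. Compared with the next highest library, replicate 1 was 2.08 times as high for Trib3, 1.93 times for Atf3, 1.29 times for Ddit3 and 1.27 times for Atf4. The ER genes did not share this order, since replicate 1 was the lowest of its group for Manf and Xbp1 and second for Hspa5. Replicate 1 was also the highest for 10 of 12 genes of the UPR sensors and eIF2 control. It was so for 7 of 12 cytosolic aminoacyl-tRNA synthetases and 7 of 14 stress regulators, but for 3 of 16 ER chaperones. The counts were 7 of 20 for amino acid synthesis and transport, 4 of 18 for ER-associated degradation and export and 4 of 11 for close relatives. Replicate 5 was the highest for 12 of 16 ER chaperones, beside 26.4% of all genes tested. The LPS libraries were uneven too. LPS replicate 5 was the highest of its group for 11 of 12 synthetases and 12 of 16 ER chaperones, beside 23.7% of all genes tested. In Rg1 plus LPS replicate 1 the mitochondrial share was 3.99%, the length slope -0.0562 and the summed level of fibroblast and mural markers 1785 CPM, the lowest of the 15 libraries. In Rg1 plus LPS replicate 4 these were 4.98%, -0.1033 and 2429 CPM. Their part in the order of the libraries was not tested.

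**Figure D3:**
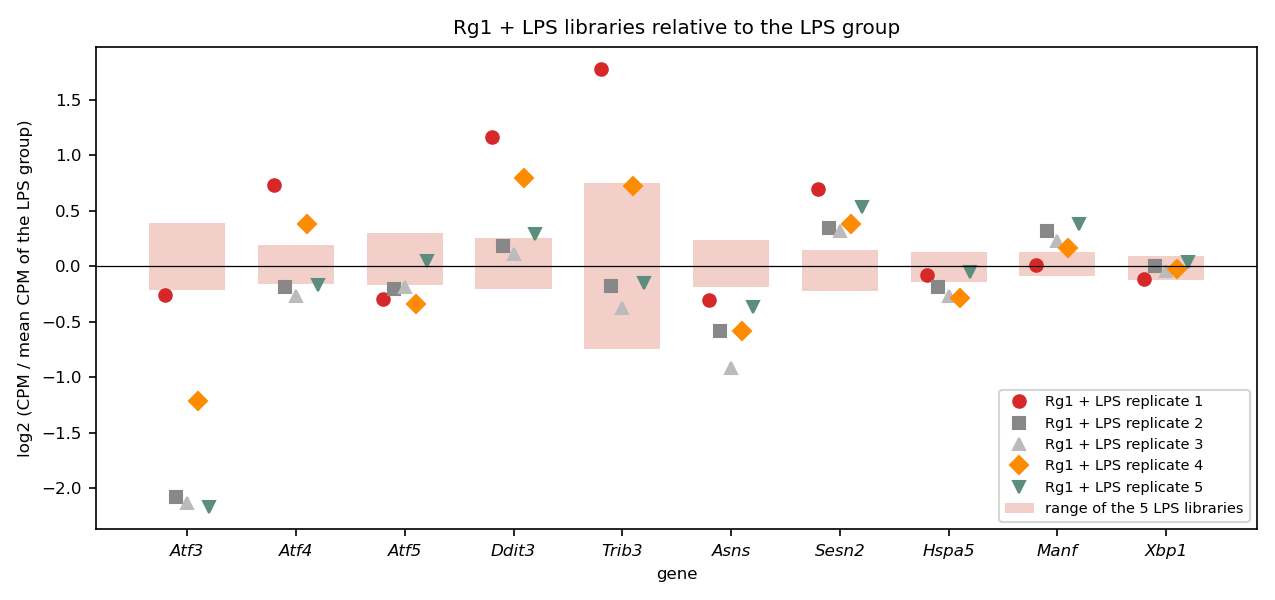
The 5 Rg1 plus LPS libraries relative to the LPS group, as log2 of CPM over the mean CPM of the LPS group, for each gene. Shaded bands are the range of the 5 LPS libraries. Replicates 1 and 4 lie above the band for Atf4 and replicates 1, 4 and 5 for Ddit3, where replicate 5 is close to it. All libraries lie below the band for Atf3 and Asns, and all lie above it for Sesn2.

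Ratios within a library do not depend on how libraries are scaled. The ratio of Asns to Hspa5 counts was 0.0812 to 0.102 in control, 0.0826 to 0.1035 in LPS and 0.0588 to 0.0792 in Rg1 plus LPS, so every Rg1 plus LPS library lay below every other library. The ratio of Asns to Atf4 was 0.274 to 0.369 in control, 0.256 to 0.359 in LPS and 0.147 to 0.263 in Rg1 plus LPS, below all control libraries and overlapping LPS. The ratio of Ddit3 to Hspa5 was 0.0406 to 0.0503, 0.0282 to 0.042 and 0.0423 to 0.0786, above all LPS libraries in each Rg1 plus LPS library. These ratios show unequal change of their genes and carry no test.

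The genes whose levels over the 15 libraries lay nearest to those of Atf4, by the root mean square difference of centred log2 CPM among 10638 candidates, were Ftl1 at 0.108, Ubap1 at 0.119, Mia2 at 0.125 and Zfp622 at 0.126. Atf4 itself varied by 0.31 about its own mean. For Hspa5, which varied by 0.115, the 4 nearest included Exosc10 at 0.0633, Cpsf1 at 0.0688 and Pcid2 at 0.0689.

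Around the 10 genes, 7 lists of the same pathways held 104 genes, of which 103 were tested. The one left out, Fgf21, had 4, 30 and 32 counts in all in control, LPS and Rg1 plus LPS. With LPS 17 of the 103 rose and 10 fell, beside 13.8% and 9.82% of all genes tested. With Rg1 12 rose and 46 fell, beside 22.2% and 23.2% of all genes. Against control, 8 were higher and 33 lower in Rg1 plus LPS, beside 18.8% and 18.1%. With scaling by total count alone the comparisons of Rg1 plus LPS with LPS and with control gave 20 higher and 32 lower, and 13 higher and 24 lower. Without Rg1 plus LPS replicates 1 and 4 they gave 13 and 50, and 9 and 38. The comparisons with LPS share the LPS libraries, so opposite changes in them are not independent.

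**Figure D4:**
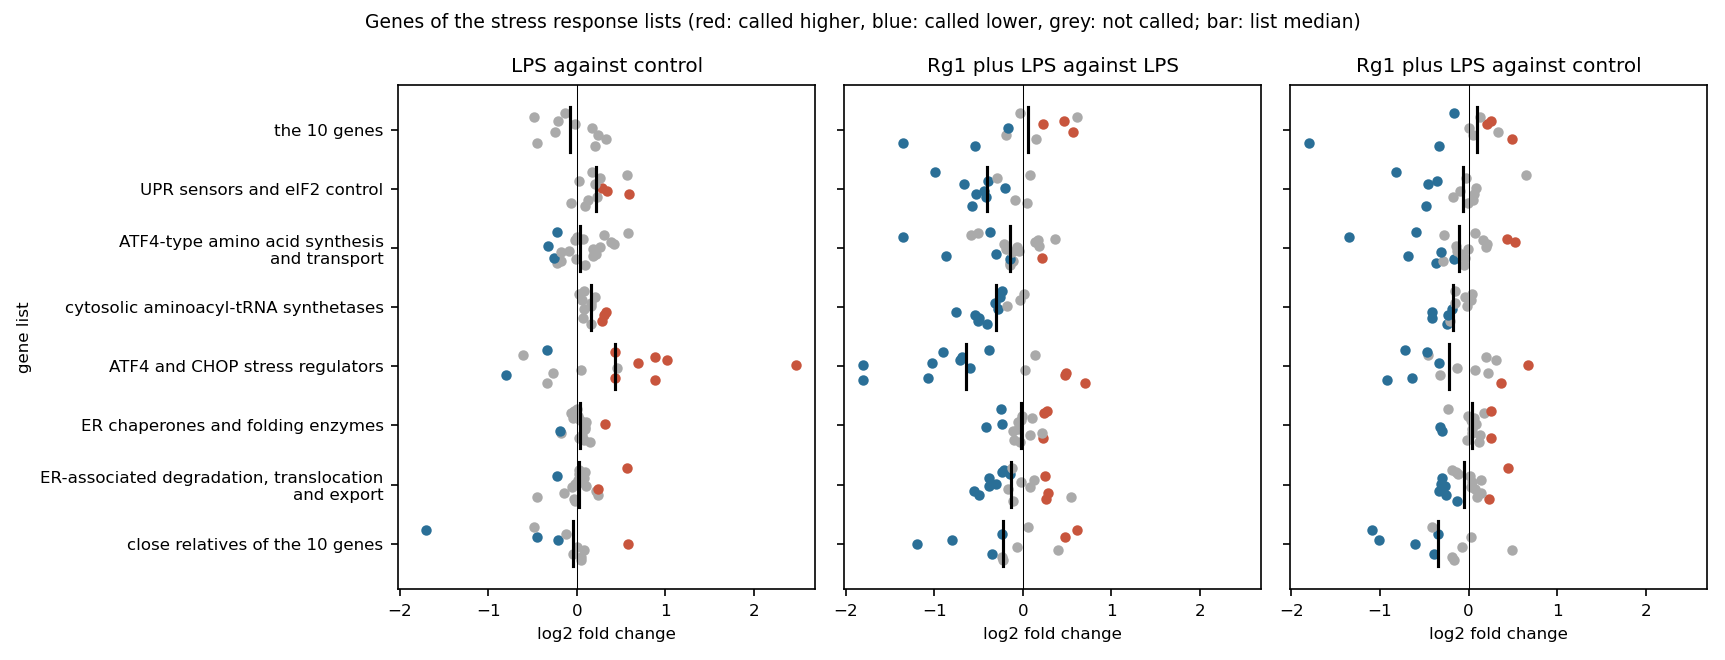
Log2 fold changes of the 10 genes and of the 7 pathway lists in the 3 comparisons. Each point is a gene (red called higher, blue called lower, grey not called) and each bar the median of its list. In Rg1 plus LPS against LPS, the medians lie at -0.64 for the ATF4 and CHOP stress regulators, -0.40 for the sensors and -0.30 for the aminoacyl-tRNA synthetases, while that of the ER chaperones lies at -0.02.

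The sensors of the response and the genes of eIF2 control were higher in LPS for 3 of 12 genes and lower after Rg1 for 8 of 12, with median log2 fold changes of 0.22 and -0.40. The shares called in either direction were 25% and 66.7%, beside 23.7% and 45.4% of all genes. Eif2ak3, which encodes PERK, had 28.3 ± 0.837 CPM in control, 42.6 ± 2.44 CPM in LPS and 29.6 ± 2.88 CPM with Rg1 (SD, n = 5), rising by 0.59 ± 0.07 with LPS (adjusted p = 5.15e-06) and falling by 0.52 ± 0.07 with Rg1 (adjusted p = 9.41e-06) on the log2 scale. Ppp1r15b, a subunit that directs the phosphatase to eIF2, fell with Rg1 from 117 ± 9.46 to 59.0 ± 3.65 CPM (adjusted p = 3.66e-09). Atf6, the ER membrane sensor that is released by proteolysis, fell from 55.5 ± 3.88 to 37.4 ± 5.66 CPM, a log2 fold change of -0.57 (adjusted p = 4.08e-05) that was -0.37 with the length trend removed (adjusted p = 0.00164).

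Among the 14 tested genes of the list of ATF4 and CHOP stress regulators, 7 rose and 2 fell with LPS, and 3 rose and 9 fell with Rg1. The shares called were 64.3% and 85.7%, beside 23.7% and 45.4% of all genes. With the length trend removed, 1 rose and 7 fell with Rg1, beside 2717 higher and 3301 lower of 15359 genes. Gdf15, a secreted stress cytokine, rose with LPS from 3.66 ± 0.516 to 20.4 ± 1.43 CPM (adjusted p = 1.31e-07). Cebpb, a C/EBP partner of ATF4 that also takes part in inflammatory gene expression, rose with LPS from 118 ± 15.8 to 217 ± 20.5 CPM (adjusted p = 1.99e-06) and fell with Rg1 to 62.2 ± 4.95 CPM (adjusted p = 2.40e-10). Cebpg, another C/EBP partner of ATF4, had 42.7, 57.4 and 27.4 CPM in control, LPS and Rg1 plus LPS. Tnfrsf10b, a death receptor, fell with Rg1 from 126 ± 10.9 to 67.4 ± 8.38 CPM (adjusted p = 1.55e-07). Those that rose with Rg1 were Bbc3, which encodes the cell death protein PUMA, by 0.70 ± 0.13 (adjusted p = 0.000446), Ddit4, an mTORC1 inhibitor, by 0.49 ± 0.13 (adjusted p = 0.00535), and Chac1, a glutathione-degrading enzyme, by 0.48 ± 0.15 (adjusted p = 0.0181). Once the length trend was removed, only Bbc3 of these was called, and Ddit4 and Chac1 both stood at 0.29, with adjusted p of 0.0511 and 0.17. The 2 that fell with LPS were Chac1 and Vldlr. Chac1 went from 13.3 ± 2.14 CPM in control to 7.63 ± 1.31 CPM in LPS (adjusted p = 0.00119), and had 10.6 ± 2.23 CPM in Rg1 plus LPS. Vldlr went from 10.3 ± 0.910 CPM in control to 8.12 ± 1.03 CPM in LPS (adjusted p = 0.0247).

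Of 20 genes of amino acid synthesis and transport, 0 rose and 3 fell with LPS, and 1 rose and 5 fell with Rg1. At 15% and 30% called, they stood below all genes tested, at 23.7% and 45.4%. Slc7a1, a carrier of cationic amino acids, had 79.8 CPM in control, 80.0 CPM in LPS and 31.3 CPM in Rg1 plus LPS, a log2 fold change of -1.36 ± 0.11 with Rg1 (adjusted p = 3.96e-08). Mthfd2, a mitochondrial enzyme of folate metabolism, fell with Rg1 from 34.6 ± 7.25 to 19.0 ± 2.96 CPM (adjusted p = 5.78e-05). Of 12 cytosolic aminoacyl-tRNA synthetases, which load amino acids on tRNA, 3 rose with LPS and 9 fell with Rg1, and none was called in the other direction. That is 25% and 75% called, the former near the 23.7% of all genes and the latter beside 45.4%. Iars, the enzyme for isoleucine, had 92.4, 116 and 69.3 CPM in the 3 groups, and fell with Rg1 by 0.75 ± 0.09 (adjusted p = 4.04e-06).

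The ER chaperones and folding enzymes moved little, as Hspa5 did. Of 16, 1 rose and 1 fell with LPS, and 3 rose and 3 fell with Rg1, with medians of 0.03 and -0.02. The shares called, 12.5% and 37.5%, were below those of all genes, 23.7% and 45.4%. Hyou1, a large ER chaperone, rose with LPS from 131 ± 7.33 to 163 ± 17.8 CPM (adjusted p = 0.00688). The 3 that rose with Rg1, Sdf2l1, Creld2 and Ppib, were not called with the length trend removed, at log2 fold changes of 0.0033, 0.00 and -0.06. Of 18 genes of ER-associated degradation, translocation and export, 2 rose and 1 fell with LPS, and 3 rose and 8 fell with Rg1. That is 16.7% and 61.1% called, beside 23.7% and 45.4% of all genes. Of the 3 that rose with Rg1, Derl2, Selenos and Edem2, only Derl2 was called with the length trend removed. Selenos then stood at -0.0015 and Edem2 at 0.16, with adjusted p of 0.984 and 0.0731. Syvn1, the ubiquitin ligase of this degradation, rose with LPS from 37.2 ± 1.01 to 55.0 ± 3.46 CPM (adjusted p = 7.72e-07) and stood at 50.4 ± 2.21 CPM in Rg1 plus LPS. Sel1l, its partner, fell with Rg1 from 207 ± 3.88 to 159 ± 3.73 CPM, a log2 fold change of -0.38 (adjusted p = 6.78e-06) and of -0.23 with the length trend removed (adjusted p = 0.000837).

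Of 11 close relatives of the 10 genes, 1 rose and 3 fell with LPS, and 2 rose and 4 fell with Rg1. That is 36.4% and 54.5% called, beside 23.7% and 45.4% of all genes. Trib1, a relative of Trib3, had 132 ± 21.9 CPM in control, 40.4 ± 2.75 CPM in LPS and 61.9 ± 4.13 CPM with Rg1, falling by 1.70 ± 0.10 with LPS (adjusted p = 1.26e-09) and rising by 0.61 ± 0.10 with Rg1 (adjusted p = 7.66e-05) on the log2 scale. Sesn1, a relative of Sesn2, fell with LPS from 38.1 ± 5.75 to 28.0 ± 3.14 CPM (adjusted p = 0.00578). With Rg1 it stood higher than in LPS, at 39.0 ± 4.45 CPM (adjusted p = 0.00163). Creb3l1 and Creb3l2, ER-anchored relatives of ATF6, fell with Rg1 by 1.19 ± 0.17 and 0.80 ± 0.07 on the log2 scale (adjusted p = 3.06e-05 and 2.78e-07). LPS moved this pair in opposite directions, Creb3l1 by 0.58 ± 0.16 (adjusted p = 0.0171) and Creb3l2 by -0.21 ± 0.07 (adjusted p = 0.0445).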

How the data were processed

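Polyadenylated RNA of 15 libraries was sequenced. Per the labels' protocols, TRIzol served for extraction and the VAHTS Universal V6 kit for library preparation. GRCm38 and mm10 are the builds in the submitters' processing notes. Aligner, counter, annotation and strandedness: not given in the sources used here. Per library, the authors deposited counts for each gene symbol, not normalized, and FPKM. Each deposited FPKM value equalled count over length and total count (relative deviation at most 7.22e-10). In each FPKM file 37 rows had symbols that did not match, and they were not used. The treatment field of the Rg1 plus LPS samples differs by sample from Rg1 to Rg5, while titles and design text give replicates of Rg1, which were followed.

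Counts of all 15 libraries were fitted in edgeR 4.0.16 (R 4.3.3) with filterByExpr, TMM scaling and the robust quasi-likelihood test, two-sided, with Benjamini-Hochberg adjustment over 15362 genes and a threshold of 0.05. CPM use TMM-scaled totals. Alternatives were other scalings and filters, DESeq2 1.42.0, limma voom (limma 3.58.1), fits of 2 groups, a lowess length trend removed per library (span 0.3), a replicate block and leaving out each library. Leaving out Rg1 plus LPS replicates 1 and 4 together was chosen after seeing the data. On simulated data, edgeR recovered 88, 85 and 86 of 100 genes made 2-fold different, and 70, 66 and 61 of 100 made 1.5-fold different, in LPS against control, Rg1 plus LPS against LPS and Rg1 plus LPS against control. Only these genes of 15362 were made different, whereas 23.7%, 45.4% and 36.9% of genes were called in the data. The recovery therefore does not carry over to the comparisons above.

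The 10 genes and all lists were chosen with earlier results of these data known. All 10 are named. Of each list, up to 3 genes called higher and 3 called lower per comparison, in order of adjusted p at a mean of at least 5 CPM, could be named, with the marker genes beside them. Gene positions and promoters are from RefSeq on GRCm38.p6, transcript lengths from GENCODE. 1 gene that the naming rule takes is not reported here. No pair of replicates agreed within sampling noise.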

Additional observations from a re-analysis of the deposited data

How the results depend on the processing

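The calls of Atf3, Asns and Sesn2 in Rg1 plus LPS against LPS, and of Atf3 in Rg1 plus LPS against control, kept their direction and side of the threshold in all 20 alternatives. For LPS against control, 0 of the 10 genes were called, but 2 were with scaling by total count alone, with a mean of at least 5 CPM, with the length trend removed and with only these groups fitted, and 1 with DESeq2. Leaving out 1 library gave 0 to 2. For Rg1 plus LPS against control, 6 were called, but 3 with the length trend removed and 3 without Rg1 plus LPS replicates 1 and 4, and leaving out 1 library gave 3 to 6. The 3 calls come without Rg1 plus LPS replicate 1 or without control replicate 1. The causes of these moved counts were not tested. For Rg1 plus LPS against LPS the count stayed within 1.5 times the 6 called. Among values called in the main comparisons, 4 changed sign with the length trend removed. These were Manf at -0.0842 against LPS and -0.0386 against control, Ppib at -0.0559 and Selenos at -0.0015 against LPS. The alternative subtracts the length trend by its construction, and the cause of the trend was not tested. Over 587 values of the 10 genes in the alternatives, 37 lost a call and 15 gained one. Besides the 2 of Manf, 24 of 347 values of differences that were not called changed sign, in 8 of 18 such differences, Hspa5 against control most often (8 of 20). Over the pathway lists, the counts called in both directions together stayed within 1.5 times in every alternative run, but those in 1 direction moved further. They ran from 15 to 28 higher and 4 to 12 lower for LPS against control, from 7 to 20 higher and 32 to 50 lower for Rg1 plus LPS against LPS, and from 4 to 13 higher and 24 to 38 lower against control. Replicate numbers were not taken to pair the libraries, since not every pair of same-numbered libraries deviated together. Their correlations were -0.22 to 0.16 between LPS and control, 0.05 to 0.42, all positive, between Rg1 plus LPS and LPS and -0.22 to 0.14 between Rg1 plus LPS and control, and 0, 3 and 1 of 5 matched their own number best. With the replicate block 0, 6 and 6 of the 10 genes were called in these comparisons, the same counts as without it. Trib3 had the fewest counts of the 10 genes, 76 to 486 per library, and what depth adds to its spread was not tested.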
